A study of Homo sapiens with 6 samples.

Results

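The mitochondrially encoded genes are the 37 genes of the small circular chromosome that human mitochondria carry, out of 60461 genes in the deposited table. They were chosen by position, as the rows placed on chrM, and comprise 13 mRNAs, 2 rRNAs and 22 tRNAs. All 37 had the same start, end and strand on chrM in a GRCh37 reference annotation, whose chrM is 16569 bases long. Their RNA was counted in total RNA-seq libraries of the MDA-MB-231 cell line, which derives from a triple-negative breast tumour. Of 6 libraries, 3 came from cells that had received an adenoviral vector for ADAR1 p110, the constitutive and mainly nuclear form of an enzyme that edits adenosine to inosine in double-stranded RNA. The other 3 came from cells given an eGFP control adenovirus, here called GFP. Both groups received virus at a multiplicity of infection of 200, a change of medium after 16 h and lysis for RNA after 48 h, so every library comes from virus-exposed cells of the same line, and cells without virus were not analysed here. The labels call the replicates biological without saying how the cultures were kept apart, and the p-values therefore reflect only how far these libraries vary, which may be technical.

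Human mitochondrial DNA is transcribed from both strands into long precursors that cover many genes. The tRNAs between the coding sequences are cut out, which frees the mRNAs and rRNAs, and most mRNAs then receive a short poly(A) tail. The mRNAs encode core subunits of complexes I, III, IV and V of the respiratory chain, and the remaining subunits of these complexes come from nuclear genes. Transcripts of the opposing strands can pair into double-stranded RNA, which is normally kept low by a degradation complex inside the organelle. Since neighbours share precursors, and in places an mRNA, the members are not independent of each other.

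Some neighbours overlap, and the stretches below are shown because reads across them can belong to either gene. The sequences are from the plus strand of chrM in GRCh37, 5′ to 3′. Capitals mark bases that both genes of a pair cover, up to the end of the stretch shown.
MT-ND4L/MT-ND4 (chrM:10750-10779): acctactccaATGCTAAaactaatcgtccc
MT-ATP8/MT-ATP6 (chrM:8517-8546): gagaaccaaaATGAACGAAAATCTGTTCGC
MT-ATP6/MT-CO3 (chrM:9197-9226): acaacacataAtgacccaccaatcacatgc
These overlaps measured 7, 46 and 1 bases. MT-ND4L with MT-ND4, and MT-ATP8 with MT-ATP6, are each known to be carried on a shared mRNA.

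The nuclear genome also holds copies of mitochondrial sequence. The best known lies on chromosome 1, where the row MTATP6P1 (hg19 chromosome 1, 569076 to 569756) matched MT-ATP6 over all 681 bases with 10 substitutions, an identity of 98.5%. The first 30 bases of both are printed to show how little separates them, with the differing base in capitals (G19A, counted from 1 at the first base of MT-ATP6, mitochondrial base first).
MT-ATP6 (chrM:8527-8556): atgaacgaaaatctgttcGcttcattcatt
MTATP6P1 (chr1:569076-569105): atgaacgaaaatctgttcActtcattcatt
Of all 100-base windows within MT-CO1, 27.9% occurred letter for letter in the nuclear genome of GRCh37. This share was 26.1% for MT-ND2, 11.9% for MT-ATP6, 11.0% for MT-ND1, 4.67% for MT-CO3 and 2.39% for MT-CO2. It was 0 for each of the other 7 mRNAs. Among the rRNAs the share was 21.2% for MT-RNR1 and 0 for MT-RNR2. The read length and the treatment of reads with several alignments are not given in the sources, so levels of genes with a high share are uncertain.

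Library totals ran from 72741235 to 99589278 gene counts, and ADAR stood at 1006 ± 13.2 CPM (counts scaled to 1e+06 per library, by TMM) in the ADAR1 p110 libraries against 267 ± 8.67 CPM in the GFP libraries (SD, n = 3 each), as labelled. Counts of ADAR do not part viral from endogenous transcripts, and editing was not measured. Mesenchymal markers of the line were present, with VIM between 1885 and 2320 CPM. ESR1 and PGR were at or below 0.0827 and 0.0263 CPM, ERBB2 was at 83.9 to 92.2 CPM, and CDH1 and GATA3 were at 2.70 to 4.33 CPM and 3.30 to 4.20 CPM. Leukocyte markers summed to 1.26 to 1.68 CPM in the ADAR1 p110 and 0.864 to 1.23 CPM in the GFP libraries, mostly from LYZ, with CD3E at 0 in each library. Fibroblast markers, mostly LUM, summed to 2.88 to 3.39 CPM and 3.54 to 3.77 CPM. The part of these marker levels in the results was not tested. On the second principal component, with 21.8% of the variance, ADAR1 p110 replicate 1 and GFP replicate 2 stood apart at 26.2 and 24.1, with the other 4 libraries between -18.2 and -7.49. Values without these libraries are also given for some results, but not for every result that moved. Because the libraries were picked from these same counts, leaving them out tends to narrow the spread within groups. Fits without both also hold fewer libraries per group, so calls made in them are no independent check.

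Mitochondrially encoded RNA made up a very small share of every library, and most of it was mRNA for cytochrome c oxidase, complex IV, which passes electrons to oxygen. Members held 0.112% of gene counts in replicate 1 of the ADAR1 p110 group, 0.0980% in replicate 2 and 0.137% in replicate 3. The GFP group held 0.145%, 0.128% and 0.136% in the same order. The groups overlapped, because ADAR1 p110 replicate 3 lay above GFP replicates 2 and 3. The means were 0.116% ± 0.0196 and 0.136% ± 0.00860 (SD, n = 3 each), a ratio of 0.851. Counting error was small beside this spread: the 95% Wilson interval was 0.0974% to 0.0987% in the lowest library and 0.144% to 0.146% in the highest. With both libraries that stood apart left out the ratio was 0.836.

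**Figure D1:**
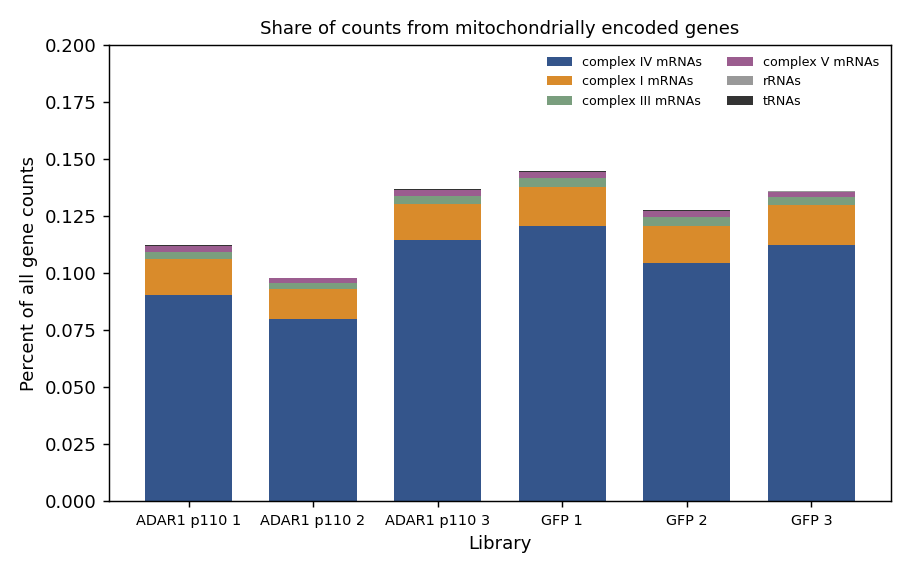
Percent of all gene counts (vertical axis, from 0) taken by mitochondrially encoded genes in each of the 6 libraries, stacked by class. Complex IV mRNAs fill most of each bar, and the totals run from 0.0980% in ADAR1 p110 replicate 2 to 0.145% in GFP replicate 1, with rRNAs and tRNAs too small to see.

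The 13 mRNAs took 99.6% ± 0.0767 of member counts in the ADAR1 p110 libraries and 99.7% ± 0.00997 in the GFP libraries. The 3 complex IV mRNAs alone took 81.9% ± 1.54 and 82.6% ± 0.905, and the 7 complex I mRNAs took 13.0% ± 1.19 and 12.6% ± 0.698. The mRNA of complex III, which hands electrons to cytochrome c, had 2.70% ± 0.138 and 2.63% ± 0.207, and those of complex V, the ATP synthase, had 1.98% ± 0.223 and 1.89% ± 0.118 (SD, n = 3 in each case). MT-CO1 contributed 44.8% ± 0.774 of member counts in the ADAR1 p110 and 45.2% ± 0.964 in the GFP libraries. The makeup of the mitochondrial RNA differed between groups by less than the larger of the SDs within them for each of these classes. For the 13 mRNAs together the difference was above the SD of the GFP libraries.

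Per length, the mRNAs spanned a wide range although 12 of the 13 lie on the same strand. On the scale of CPM per kb of gene length, MT-CO3 stood at 363 ± 68.5 in the ADAR1 p110 and 432 ± 38.1 in the GFP libraries, and MT-CO1 at 334 ± 61.3 and 402 ± 32.3 (SD, n = 3 each). The ranges of these genes over libraries overlapped, but MT-CO3 was above MT-CO1 in 6 of 6 libraries. MT-CO2 followed at 207 ± 35.1 and 255 ± 20.3, then MT-ND3 at 96.9 ± 13.4 and 108 ± 18.1, and then MT-ND4L at 44.5 ± 4.86 and 52.8 ± 2.70, with no overlap between neighbours from MT-CO1 down to MT-ND4L or between MT-ND4L and the next gene. MT-ATP6, MT-ND4 and MT-CYB lay together between 23.3 and 34.3 CPM per kb, and their order could not be told beyond the spread of the libraries. MT-ND5 and MT-ND6 shared a level, at 16.2 to 21.3 and 16.0 to 20.8 CPM per kb, and overlapped with MT-ATP8 at 12.4 to 18.4. The lowest were MT-ND2, at 9.56 to 14.6, and MT-ND1, at 8.59 to 12.2.

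Within a library MT-CO3 was 31.5 to 42.5 times as high per length as MT-ND1, at the other end of the order. By mean level per length among all 60461 genes, MT-CO3, MT-CO1 and MT-CO2 ranked 45, 48 and 98 with GFP and 56, 64 and 127 with ADAR1 p110. MT-ND1 ranked 4063 and 4682. The genes with the most windows shared with the nuclear genome were found at both ends of the order, MT-CO1 near the top and MT-ND2 near the bottom. Whether reads shared with nuclear copies shaped this order was not tested.

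**Figure D2:**
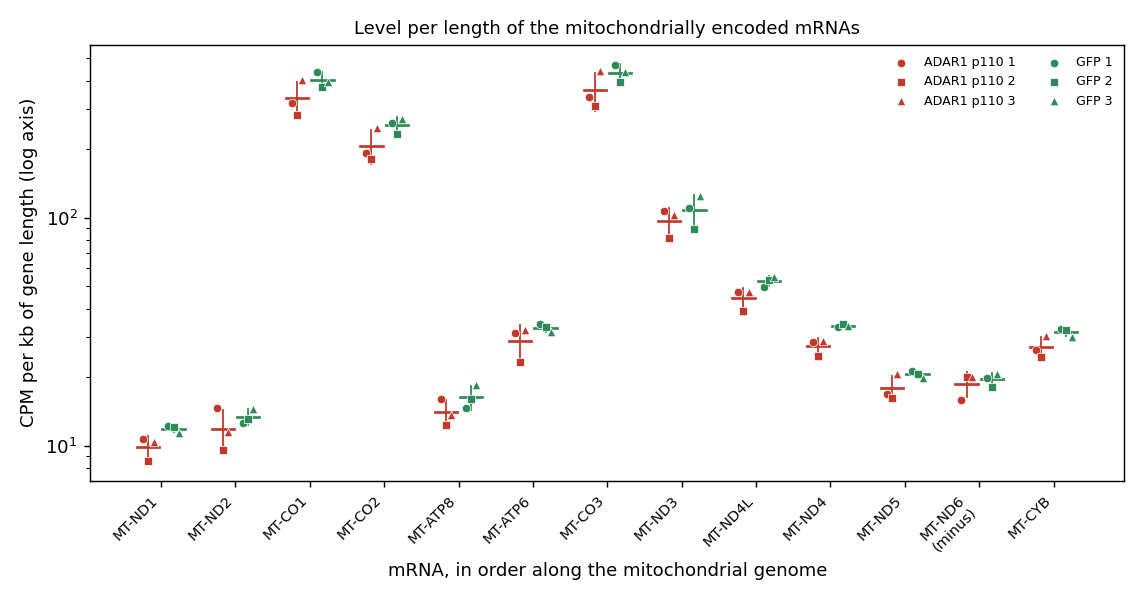
CPM per kb of gene length (log axis) for the 13 mRNAs in order along the mitochondrial genome, with ADAR1 p110 libraries in red and GFP in green, replicates 1, 2 and 3 as circles, squares and triangles, means as horizontal bars and SDs as vertical lines (n = 3). MT-CO1, MT-CO2 and MT-CO3 lie at or above 182 in all 6 libraries, while MT-ND1 and MT-ND2 lie below 14.6.

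The comparison asked whether raising ADAR1 p110 went with a change in these RNAs. A single member changed past the threshold: MT-ND4, a subunit of the proton-pumping arm of complex I, fell to 0.812 of its GFP level (edgeR adjusted p = 0.0273). The other 12 mRNAs had estimates below 0 that did not pass the test. Among the 18899 genes tested, 4.91% were called (adjusted p under 0.05, by the quasi-likelihood test of edgeR with the Benjamini-Hochberg method), 2.96% as lower and 1.95% as higher. Of the 37 members, 21 had enough counts to be tested, namely the 13 mRNAs, MT-RNR1 and 7 tRNAs, and 1 of the 21 was called, which is near the background. At an unadjusted edgeR p under 0.05 and in the downward direction there were 8 members, all mRNAs, and 9.43% of all tested genes. The median log2 fold change was -0.23 over the 13 mRNAs and 0.00478 over all tested genes, 48.8% of which had an estimate below 0. The median over the 13 mRNAs was -0.15 without ADAR1 p110 replicate 2, when the estimates of the 12 mRNAs of the plus strand ran from -0.23 to -0.04. In these bulk samples fewer cells of a type and less RNA per cell cannot be told apart.

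Complex I, which oxidises NADH and pumps protons, has 7 mitochondrially encoded subunits, all of them in its membrane arm. MT-ND4 (chrM, 10760 to 12137, plus strand) had 2996, 3354 and 3061 counts with ADAR1 p110 and 3957, 3425 and 4556 counts with GFP, each in the order of replicates 1, 2 and 3, as are all values per library that follow. On the CPM scale these were 39.4, 34.0 and 39.6 against 45.6, 47.2 and 46.3. Every ADAR1 p110 library lay below every GFP library, as was the case for 12.2% of tested genes. No 100-base window of MT-ND4 occurred in the nuclear genome. The means were 37.7 ± 3.16 and 46.4 ± 0.809 CPM (SD, n = 3 each). This gave an estimate of -0.30 on the log2 scale, with an SE of 0.0667. The call was lost without ADAR1 p110 replicate 2 or 3 (edgeR adjusted p = 0.107 and 0.0559) and without GFP replicate 1, 2 or 3 (adjusted p = 0.110, 0.0821 and 0.103), while the estimate stayed between -0.33 and -0.23.

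MT-ND4L, which overlaps MT-ND4 in the 7 capital letters printed above and shares its mRNA, showed values of 14.0, 11.5 and 14.1 CPM in the ADAR1 p110 and 14.8, 15.8 and 16.4 CPM in the GFP libraries. The groups did not overlap here either, but the log2 fold change of -0.25 (SE 0.0878) did not pass (edgeR adjusted p = 0.149). Per length, MT-ND4L stood at 1.51 to 1.65 times MT-ND4 in all 6 libraries, with means of 1.62 ± 0.0437 and 1.57 ± 0.0688 (SD, n = 3 each), which overlapped between groups.

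MT-ND1, at the junction of the membrane arm with the arm that receives electrons, was the third tested member without overlap. Its levels were 10.3, 8.21 and 9.91 CPM against 11.7, 11.6 and 10.9 CPM, and the log2 fold change was -0.27 (SE 0.0917), short of the threshold (edgeR adjusted p = 0.139). MT-ND5, another proton-pumping subunit, gave 30.6, 29.3 and 37.3 CPM against 38.6, 37.5 and 35.9 CPM. In it ADAR1 p110 replicate 3 reached the GFP range (log2 fold change -0.20, adjusted p = 0.232). MT-ND2 had 15.2, 9.97 and 11.98 CPM against 13.1, 13.7 and 15.2 CPM, and MT-ND3 36.9, 28.3 and 35.5 CPM against 38.2, 30.9 and 43.3 CPM. Both overlapped widely, with log2 fold changes of -0.18 (SE 0.131) and -0.16 (SE 0.124) and adjusted p of 0.525 and 0.548 in edgeR. The estimate of MT-ND2 was -0.35 without ADAR1 p110 replicate 1 and -0.04 without replicate 2. That of MT-ND3 was -0.05 without ADAR1 p110 replicate 2, -0.04 without GFP replicate 3 and -0.28 without GFP replicate 2.

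MT-ND6 is the single mRNA encoded on the opposite strand from the other 12 and follows a separate precursor. It had 8.37, 10.5 and 10.5 CPM in the ADAR1 p110 and 10.5, 9.55 and 10.9 CPM in the GFP libraries. Its estimate was the closest to 0 of the mRNAs, at -0.07 (SE 0.0996, edgeR adjusted p = 0.769), and turned to 0.03 without ADAR1 p110 replicate 1. ADAR1 p110 replicate 2 had the lowest value of all 6 libraries for the other 12 mRNAs, but not for MT-ND6, where replicate 1 did. MT-ND6 therefore took 1.07% of member counts in ADAR1 p110 replicate 2 and 0.715% to 0.791% in the remaining 5 libraries. Whether its change differs from that of the plus-strand mRNAs was not tested. The strand setting of the counting is not given in the sources used here, so antisense reads across a gene cannot be told apart from its own.

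MT-CYB encodes cytochrome b, the mitochondrially encoded subunit of complex III. Its values were 29.9, 27.9 and 34.7 CPM in the ADAR1 p110 and 37.2, 36.7 and 34.2 CPM in the GFP libraries. ADAR1 p110 replicate 3 exceeded GFP replicate 3, so the groups overlapped. The log2 fold change was -0.23 (SE 0.0800, edgeR adjusted p = 0.155), and it passed without a low-count filter (adjusted p = 0.0463). The limit given below for unfiltered p-values applies.

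The complex IV mRNAs, for the 3 catalytic core subunits of cytochrome c oxidase, had the same pattern over the libraries. MT-CO1 (chrM, 5904 to 7445) stood at 494, 434 and 619 CPM in the ADAR1 p110 and 675, 577 and 609 CPM in the GFP libraries. MT-CO2 (chrM, 7586 to 8269) stood at 132, 125 and 169 CPM against 179, 159 and 186 CPM. MT-CO3 (chrM, 9207 to 9990) stood at 265, 243 and 345 CPM against 368, 309 and 340 CPM. For all 3 genes ADAR1 p110 replicates 1 and 2 lay below the GFP libraries and replicate 3 lay among them. Their log2 fold changes were -0.27 (SE 0.110), -0.30 (SE 0.104) and -0.25 (SE 0.113), with edgeR adjusted p of 0.222, 0.144 and 0.261. Without a low-count filter all 3 passed (edgeR adjusted p = 0.000170, 7.1e-05 and 0.000830). MT-CO2 also passed in the DESeq2 Wald test (adjusted p = 0.0308), which was likewise run without that filter. Leaving out the filter also took the edgeR adjusted p of ADAR from 2.67e-09 to 3.36e-234 at nearly the same log2 fold change, 1.912 and 1.914. The DESeq2 Wald test gave ADAR an adjusted p of 4.26e-246. Unfiltered p-values are therefore not comparable with those of the filtered fit and are no firm measure of the spread between replicates. Per length, MT-CO1 was 1.45 to 1.67 times and MT-CO3 1.60 to 1.79 times MT-CO2 over the 6 libraries, with overlapping groups.

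Without ADAR1 p110 replicate 3 all 3 complex IV mRNAs passed, at log2 fold changes of -0.42, -0.44 and -0.41 and edgeR adjusted p of 0.0278, 0.0132 and 0.0260, as did MT-ND5 at -0.31 (adjusted p = 0.0460). These 4 were then called beside 2.26% of all genes. Without ADAR1 p110 replicate 1 the called members were MT-ND1, MT-ND2 and MT-ND4, beside 9.19% of all genes. With both libraries that stood apart left out, 6 members were called as lower and none as higher, beside 13.4% of all tested genes. These were MT-ND1, MT-ND2, MT-ND3, MT-ND4, MT-ND4L and MT-CO2, with a median over the 13 mRNAs of -0.29. Those libraries were picked from these same counts, so these calls are no independent check.

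MT-ATP6 and MT-ATP8 encode subunits of the membrane-bound proton channel side of ATP synthase. MT-ATP6 gave 21.4, 15.9 and 21.9 CPM in the ADAR1 p110 and 23.4, 22.5 and 21.5 CPM in the GFP libraries (log2 fold change -0.19, SE 0.107, edgeR adjusted p = 0.393). MT-ATP8, the lowest of the mRNAs in CPM though not per length, gave 3.33, 2.57 and 2.82 CPM against 3.02, 3.32 and 3.81 CPM (log2 fold change -0.23, SE 0.135, adjusted p = 0.422). The groups overlapped in both genes. Per length MT-ATP6 was 1.71 to 2.36 times MT-ATP8, although both lie on 1 mRNA and share the overlap of 46 bases whose start is printed above.

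**Figure D3:**
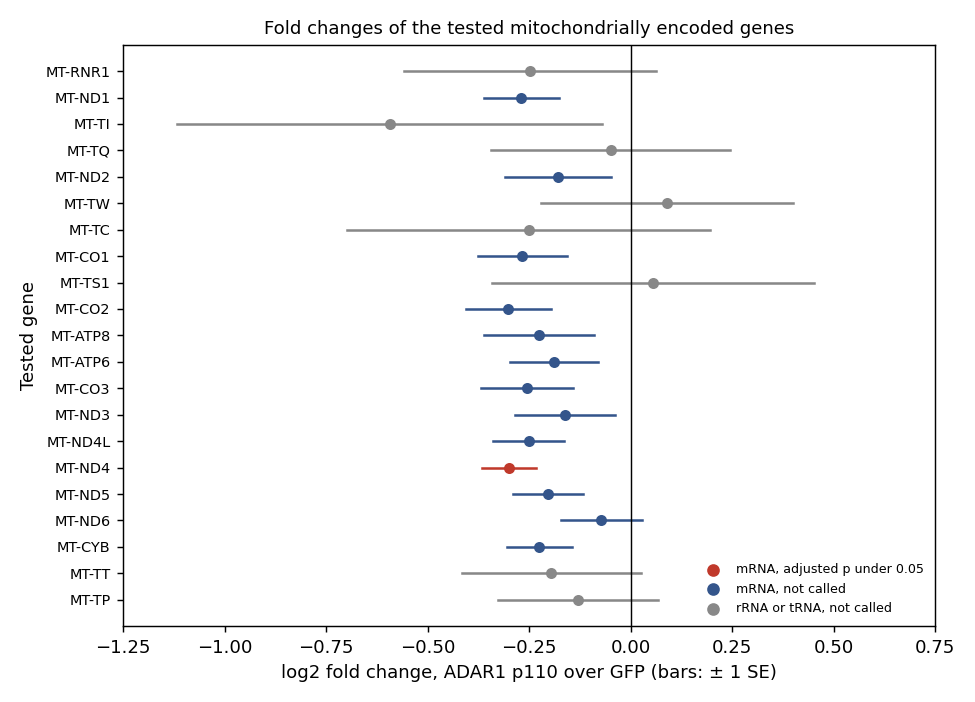
Log2 ratio of ADAR1 p110 to GFP (horizontal axis, ± 1 SE) for the 21 tested members in order along the mitochondrial genome, with the called mRNA in red, other mRNAs in blue and the rRNA and tRNAs in grey. All 13 mRNAs lie between -0.30 and -0.07, and the SEs of the rRNA and tRNAs reach 0.523.

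The 2 rRNAs, the RNA core of the mitochondrial ribosome, were nearly absent from the libraries. MT-RNR1, the small-subunit rRNA, had 87, 55 and 43 counts in the ADAR1 p110 and 64, 56 and 112 in the GFP libraries, which amounts to 0.753 ± 0.340 and 0.883 ± 0.222 CPM (SD, n = 3 each). It overlapped between groups (log2 fold change -0.25, SE 0.311, edgeR adjusted p = 0.743). The estimate was -0.67 without ADAR1 p110 replicate 1, -0.75 without both libraries that stood apart and -0.01 without GFP replicate 3, and passed in none of these. MT-RNR2, the large-subunit rRNA, had 29 counts in all 6 libraries together, between 1 and 7 per library, and was not tested. Ribosomal RNA is normally among the most abundant RNA of mitochondria. Total RNA kits commonly include a step that removes rRNA, but the labels do not describe one, and these counts say nothing about rRNA levels in the cells.

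The 22 tRNAs were captured at trace levels, with 1833 counts over 6 libraries. MT-TP (chrM, 15956 to 16023, minus strand), the tRNA for proline, and its neighbour MT-TT (chrM, 15888 to 15953, plus strand), the tRNA for threonine, held 50.0% of them. MT-TP had 1.24, 0.853 and 1.10 CPM in the ADAR1 p110 and 1.28, 1.01 and 1.18 CPM in the GFP libraries (log2 fold change -0.13, SE 0.197). MT-TT had 0.737, 0.650 and 0.556 CPM against 0.668, 0.841 and 0.722 CPM (log2 fold change -0.20, SE 0.220). Both overlapped between groups. In the nuclear genome blastn found full-length matches of 100% identity for MT-TQ, MT-TW, MT-TA, MT-TN, MT-TS1, MT-TK and MT-TE. The best match for MT-TP was 91.2% identical, and none was found for MT-TT. Whether reads shared with such copies shaped the order of the tRNA counts was not tested.

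The other 5 tested tRNAs were MT-TI, MT-TQ, MT-TW, MT-TC and MT-TS1, for isoleucine, glutamine, tryptophan, cysteine and serine. Their means were between 0.151 and 0.469 CPM in both groups, their log2 fold changes ran from -0.59 to 0.09, and their SEs from 0.295 to 0.523. The lowest of these was MT-TI, with 28 counts in GFP replicate 2, and its estimate was -0.03 without that library. None of the 7 tested tRNAs passed, at the threshold of 0.05 or at an unadjusted edgeR p under 0.05. The 15 untested tRNAs had at most 49 counts over all libraries. Of these, MT-TA, MT-TE, MT-TM, MT-TH, MT-TY, MT-TL2 and MT-TG had 49, 43, 33, 24, 19, 11 and 10 counts in total. MT-TS2, MT-TD, MT-TF, MT-TN, MT-TR, MT-TK and MT-TL1 had 9 or fewer, which is too few to compare groups. MT-TV, for valine, had 0 counts in each library, which allows up to 3 counts per library, or 0.0305 to 0.0414 CPM, for counting error only. Sequencing of this kind captures mature tRNAs poorly because they are short and heavily modified, so these counts may come from precursors as well as tRNAs, which was not tested.

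The tested rows for nuclear copies of mitochondrial genes had estimates below 0, but their counts may include misplaced reads of the members. Read length and the treatment of reads with several alignments are not given, so such reads cannot be told apart from transcripts of the copies. By name 406 such rows were found, and 5 had enough counts to be tested. MTCO1P12 (hg19 chromosome 1, 566454 to 567996), 98.6% identical to MT-CO1, was the most abundant, with 9.35, 12.3 and 15.5 CPM in the ADAR1 p110 and 16.6, 13.2 and 15.4 CPM in the GFP libraries. Its counts were 1.89% to 2.83% of those of MT-CO1. MTCO2P12 held 0.245% to 0.347% of the counts of MT-CO2, MTATP6P1 4.32% to 6.46% of those of MT-ATP6, and MTND2P28 5.03% to 7.58% of those of MT-ND2. MTATP6P1 overlaps MTCO3P12 on the same strand, which had 39.9% as many counts. Log2 fold changes of the 5 rows ran from -0.53 to -0.28. None passed, at an edgeR adjusted p under 0.05 or an unadjusted p under 0.05, though MTCO1P12 did without a low-count filter (adjusted p = 0.0280). The limit given above for unfiltered p-values applies here too. Adding all 406 rows to the members left the ratio of shares at 0.850.

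Nuclear subunits of the same complexes had medians near 0. Of 38 tested genes listed by symbol as nuclear subunits of complex I none was called. Their log2 fold changes ran from -0.12 to 0.14 with a median of 0.01, where the 7 mitochondrially encoded subunits had a median of -0.20. The symbol rule also took NDUFA4, which is counted again among the 12 of complex IV below. The most abundant of the 38 was NDUFS1, an iron-sulphur subunit, at 224 ± 6.13 and 231 ± 4.41 CPM (SD, n = 3 each). It overlaps EEF1B2 on the other strand, which had 189% as many counts. Of 36 for complexes III, IV and V none was called either, and the medians were 0.000539 for 9 nuclear subunits of complex III, -0.03 for 12 of complex IV and -0.01 for 15 of complex V. The mitochondrially encoded medians were -0.23, -0.27 and -0.21. At an unadjusted edgeR p under 0.05 there was 1 gene in each of these nuclear lists, and 18.6% of all tested genes. Without both libraries that stood apart 0 and 2 were called, the latter higher. The most abundant of the 36, ATP5A1, the alpha subunit of ATP synthase, had 823 ± 46.9 and 837 ± 30.6 CPM (SD, n = 3 each).

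Levels per length also set complex IV apart. The median over its mitochondrially encoded mRNAs was 334 ± 61.3 and 402 ± 32.3 CPM per kb in the ADAR1 p110 and GFP libraries, against 52.6 ± 2.57 and 55.1 ± 3.08 for its nuclear mRNAs. In complex I the levels of both kinds overlapped, at 19.2 ± 1.98 and 20.9 ± 0.340 for the mitochondrially encoded and 20.7 ± 0.560 and 20.9 ± 1.26 for the nuclear mRNAs. In complex III and complex V the mitochondrially encoded medians were lower, with MT-CYB at 24.4 to 32.6 over the libraries against 59.6 to 68.7, and complex V at 17.9 to 25.0 against 35.6 to 43.5 CPM per kb (SD, n = 3 where given).

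Over all 8 nuclear lists, the subunits above and the genes that make, process and translate mitochondrial RNA, 256 of 258 genes were tested. Of these 2 were called, both higher, beside 4.91% of all tested genes, with a median log2 fold change of -0.01. Without ADAR1 p110 replicate 1 there were 12 calls, beside 9.19% of all genes, and without both libraries that stood apart 20, beside 13.4%, in both cases with some higher and some lower. Without ADAR1 p110 replicate 2 or 3 or GFP replicate 1 there was none. Among 20 genes for transcription and replication of mitochondrial DNA, 1 rose. This was PRIMPOL, a primase and polymerase that restarts stalled replication in nucleus and mitochondria, at 10.4, 10.4 and 10.0 CPM against 8.64, 7.61 and 8.09 CPM (edgeR adjusted p = 0.0306, log2 fold change 0.34, SE 0.0766). It overlaps CENPU on the other strand, which had 947% as many counts. The call of PRIMPOL was lost without any library other than ADAR1 p110 replicate 1, with adjusted p up to 0.108. Picked after their values were seen, the mitochondrial RNA polymerase POLRMT and the packaging and transcription factor TFAM gave estimates of 0.15 and 0.04 on the log2 scale that missed the threshold (edgeR adjusted p = 0.301 and 0.751).

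Of 36 genes for processing, polyadenylation and decay of mitochondrial RNA, none was called and 5 had an unadjusted edgeR p under 0.05. Without both libraries that stood apart 3 were called, 1 of them higher. The most abundant was LRPPRC, which stabilises mitochondrial mRNAs, at 295 ± 9.29 and 309 ± 19.2 CPM (SD, n = 3 each, log2 fold change -0.06). The nuclease PNPT1 and the helicase SUPV3L1, picked after their values were seen, together degrade mitochondrial double-stranded RNA. PNPT1 stood at 76.7 ± 2.74 and 77.1 ± 3.51 CPM and SUPV3L1 at 47.9 ± 1.61 and 52.6 ± 0.828 CPM (SD, n = 3 each), with log2 fold changes of -0.01 and -0.13 and edgeR adjusted p of 0.970 and 0.194.

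Mitochondrial ribosomal protein genes gave 1 call in 81, MRPS26 of the small subunit, which rose from 31.1, 35.6 and 36.0 CPM to 40.9, 47.0 and 44.3 CPM (edgeR adjusted p = 0.0178, log2 fold change 0.36, SE 0.0742). That call was lost without ADAR1 p110 replicate 2 or 3 or GFP replicate 1 (adjusted p = 0.0849, 0.0715 and 0.0807). The list gave 8 calls, 7 of them higher, without ADAR1 p110 replicate 1, and 10, 8 of them higher, without both libraries that stood apart. Without a low-count filter it gave 5, all higher. None was called among 16 translation factors, 22 genes for loading tRNAs with amino acids or 10 regulators of mitochondrial biogenesis. The 22 were aminoacyl-tRNA synthetases together with QRSL1, GATB and GATC, which are subunits of an amidotransferase. In these lists 2, 1 and 1 genes had an unadjusted edgeR p under 0.05. Without both libraries that stood apart these 3 lists gave 0, 1 and 1 calls, all lower. The most abundant of each by the mean over all 6 libraries were TUFM, at 177 ± 8.998 and 188 ± 8.64 CPM, IARS2, at 259 ± 9.71 and 250.0 ± 3.92 CPM, and YY1, at 139 ± 1.65 and 140 ± 8.16 CPM (SD, n = 3 each).

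**Figure D4:**
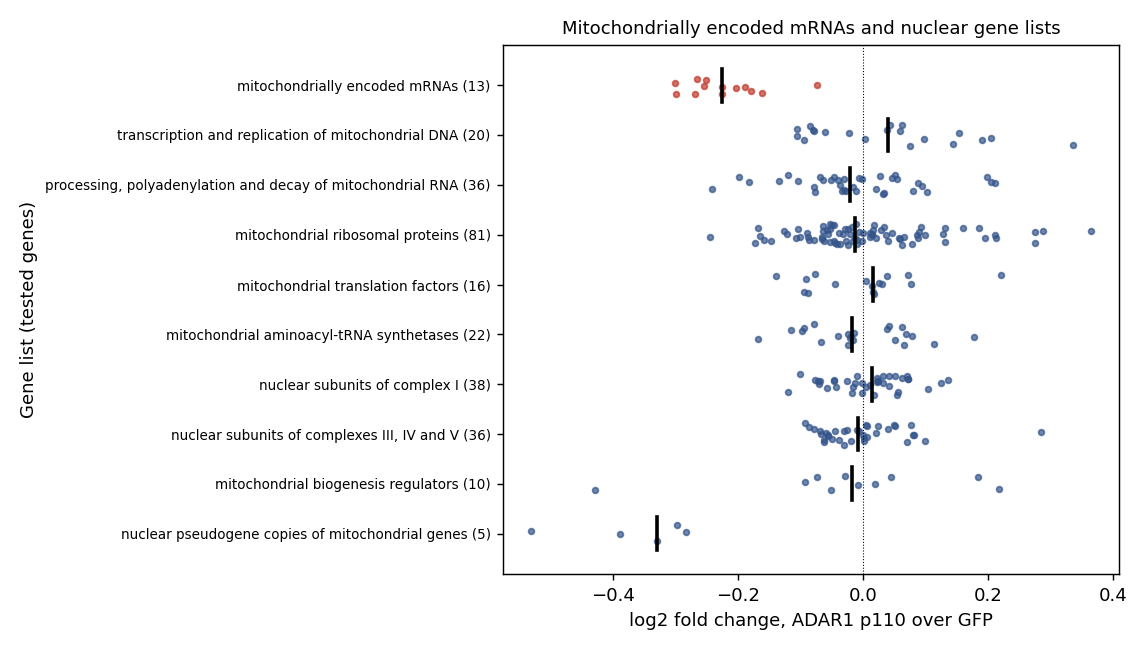
Log2 ratio of ADAR1 p110 to GFP (horizontal axis) for the 13 mitochondrially encoded mRNAs (red) and for the tested genes of 9 nuclear lists (blue, numbers in brackets), each point being a gene and each black bar the median. The red points lie left of 0 with a median of -0.23, as do the 5 nuclear copies, whose counts may include reads of the members. The medians of the other 8 lists lie between -0.02 and 0.04.

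Other library measures did not order the libraries as the mitochondrial share did. The share of ribosomal protein genes was 4.50%, 5.04% and 4.95% with ADAR1 p110 and 4.98%, 4.53% and 5.08% with GFP. The nucleus-retained RNAs MALAT1 and NEAT1 together took 0.281%, 0.168% and 0.219% against 0.242%, 0.311% and 0.170%. ADAR1 p110 replicate 2, with the lowest mitochondrial share, had the lowest share of these nuclear RNAs, but GFP replicate 3 came next in the nuclear share and was among the higher ones in the mitochondrial share. ADAR1 p110 replicate 1 and GFP replicate 2, the libraries that stood apart, had the lowest ribosomal protein shares and the highest shares of MALAT1 and NEAT1. The part of these measures in the mitochondrial values was not tested.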

How the data were processed

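Raw, whole-number counts per gene were deposited by the authors in 1 table that also holds each gene's name, type, position and length, per the file headers. Reads were aligned to hg19 with STAR 2.5.2a, counted with featureCounts 1.5.1, and compared with DESeq2 1.4.5 in R 3.1, per the submitters' processing notes. The labels' protocols name a stranded total RNA kit.

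Groups and replicate numbers came from the sample titles. Genes kept by filterByExpr (minimum count 10) were scaled by TMM and tested in edgeR 4.0.16 (R 4.3.3) with glmQLFit and glmQLFTest, group being the only term, with Benjamini-Hochberg adjustment over all 18899 tested genes. An adjusted p under 0.05 was called. The SE is the size of the log2 fold change divided by the root of F. The tests were checked on simulated counts with 200 changed genes. Sequence copies were found by exact windows and with blastn 2.17.0 in GRCh37. Alternatives used DESeq2 1.42.0 and limma 3.58.1.

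The members and lists were chosen with earlier results of these data known. All 37 members were named. From each nuclear list the rule took up to 4 called genes with the smallest p or, with none called, the most abundant, and it took the 4 most abundant nuclear copies. ATP5MD and ATP5MPL were not matched. Replicates differed beyond sampling noise (chi-square per degree of freedom from 8.64 to 39.7).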

Additional observations from a re-analysis of the deposited data

How the results depend on the processing

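Low counts limit the rRNAs and tRNAs, 16 of which were not tested, more than the mRNAs, whose lowest count in a library was 218. Replicate numbers did not pair the libraries: the correlation of deviations from group means was -0.109, -0.0296 and 0.0433 for numbers 1, 2 and 3. With the replicate number as a block, 508 genes, 0 members and 1 gene of the nuclear lists were called, and MT-ND4 had an adjusted p of 0.0827. The counts as reported were 927, 1 and 2. Leaving out each library in turn gave 396 to 1812 genes, 0 to 4 members and 0 to 12 genes of the nuclear lists. Without both ADAR1 p110 replicate 1 and GFP replicate 2, which were picked from these same counts, they were 2605, 6 and 20. Without a low-count filter these counts were 1553, 5 and 8, with the limit on unfiltered p-values given above for the complex IV mRNAs. The DESeq2 Wald test, also without that filter and under the same limit, called 2 members, MT-CO2 and MT-ND4, and 7 genes of the nuclear lists. Scaling by library size alone called 4 genes of the nuclear lists. The cause of these shifts was not tested. No setting called a member as higher, the ratio of mitochondrial shares ran from 0.773 to 0.916, and the median over the 13 mRNAs stayed between -0.30 and -0.15. With library size alone the median of all genes was 0.03, and 510 genes were higher and 479 lower, against 368 and 559. Signs turned for some genes. Leaving out each library in turn gave log2 fold changes from -0.124 to 0.0263 for MT-ND6, -0.254 to 0.0166 for MT-TP, -0.205 to 0.0504 for MT-TQ and -0.103 to 0.315 for MT-TW. They ran from -0.616 to 0.178 for MT-TC, -0.0707 to 0.248 for MT-TS1, -0.0506 to 0.0218 for ATP5A1 and -0.0390 to 0.0440 for YY1. Without both libraries named above MT-TW had -0.235 and YY1 0.0516, and with library size alone YY1 had 0.0157.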
